A study of Homo sapiens with 19 samples.

Results

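ZIC1, ZIC2, ZIC4 and ZIC5 are 4 human ZIC genes that were followed through 19 RNA-seq samples of H1 human embryonic stem cells (hESCs), an established cell line, in which polycomb repressive complex 2 (PRC2) had been taken away in several ways. The 4 genes were found by their symbols among the 33382 genes listed for every sample, and each was listed once. They were selected on a value of these same data, the jump of ZIC1 at day 8 after withdrawal of doxycycline (DOX), so the values of that time course are given as a description and were not tested.

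The study asked what PRC2, which places the repressive histone mark H3K27me3, does in hESCs. WT H1 cells (genotype label "control") and H1 lines with EZH1 knockout, EZH2 knockout, EZH1 and EZH2 knockout, EED knockout or SUZ12 knockout had 2 samples each. Per the study, each knockout removed a functional domain of both copies by CRISPR/Cas9 and homologous recombination with a drug cassette, and the double knockout (EZH2-/-/EZH1-/- H1) was made in EZH2-/- H1 cells after the cassette had been excised. H3K27me3 was described as lost in SUZ12-/- H1, EZH2-/-/EZH1-/- H1 and EED-/- H1 cells, called the PRC2-null lines here, and as retained at a lower level in EZH1-/- H1 and EZH2-/- H1 cells, which with WT H1 are called the retaining lines. H1-EED-/-/EED-OE cells carry a DOX-inducible lentiviral EED transgene and then lost their own EED. They had 1 sample with DOX, whose title also carries a day 28 tag, and 1 sample at each of days 8, 12, 16, 20, 24 and 28 without DOX. All cells were described as kept in mTeSR1 medium on matrigel. By their titles the 2 samples of a knockout line differ in clone or passage, and no label says whether the WT H1 samples came from separate cultures, so p-values measure the spread between these samples only.

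ZIC proteins are zinc finger transcription factors related to the GLI proteins of the hedgehog pathway, and they bind similar DNA motifs. They are known for roles in the neural plate and its border, the dorsal neural tube, the neural crest, the cerebellum and the somites. ZIC2 is also expressed in pluripotent cells of the epiblast, deletion of ZIC1 together with ZIC4 has been linked to a cerebellar malformation in humans, and loss of ZIC2 to holoprosencephaly, a failure of the forebrain to divide. H3K27me3 commonly covers the promoters of such developmental regulators in hESCs, and those promoters are usually rich in CpG dinucleotides.

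The 4 genes form 2 neighbouring pairs whose partners lie on opposite strands. In GENCODE release 44 on GRCh38, ZIC1 (ENSG00000152977) spans chromosome 3 from 147393422 to 147510293 on the plus strand and ZIC4 (ENSG00000174963) from 147386046 to 147406809 on the minus strand. These gene models overlap by 13388 bases and share 176 exon bases, 2.58% of the ZIC1 exons and 2.07% of the ZIC4 exons. The library kit does not keep the strand, so reads from the shared bases cannot be told apart. ZIC2 (ENSG00000043355) spans chromosome 13 from 99981784 to 99986765 on the plus strand and ZIC5 (ENSG00000139800) from 99962964 to 99971767 on the minus strand, with 10016 bases between them and no shared exon base. The closest RefSeq start sites lie 2822 bases apart for ZIC1 and ZIC4 and 9875 bases apart for ZIC2 and ZIC5.

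Since in the knockout lines, though not at every day of the time course, the values below move together within each pair and apart between the pairs, the 250 bases before a start site are shown for each gene, from RefSeq on GRCh38.p14, read 5′ to 3′ on the strand of the gene with every CG in capitals. Of several ZIC4 starts, the only window outside annotated ZIC4 exons is shown, and for ZIC5 the start closest to ZIC2. The windows are chr3:147409115-147409364 (plus strand) for ZIC1, chr3:147404285-147404534 (minus strand) for ZIC4, chr13:99981534-99981783 (plus strand) for ZIC2 and chr13:99971910-99972159 (minus strand) for ZIC5.
ZIC1: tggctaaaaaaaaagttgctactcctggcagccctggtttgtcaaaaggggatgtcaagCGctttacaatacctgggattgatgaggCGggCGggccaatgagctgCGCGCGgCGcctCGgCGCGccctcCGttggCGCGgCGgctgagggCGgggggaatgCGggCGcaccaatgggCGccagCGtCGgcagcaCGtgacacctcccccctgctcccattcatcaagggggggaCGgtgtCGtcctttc
ZIC4: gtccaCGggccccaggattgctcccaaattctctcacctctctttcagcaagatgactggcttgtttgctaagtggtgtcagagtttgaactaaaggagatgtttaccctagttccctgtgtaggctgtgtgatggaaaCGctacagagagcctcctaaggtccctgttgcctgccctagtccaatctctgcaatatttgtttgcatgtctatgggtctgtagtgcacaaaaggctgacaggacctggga
ZIC2: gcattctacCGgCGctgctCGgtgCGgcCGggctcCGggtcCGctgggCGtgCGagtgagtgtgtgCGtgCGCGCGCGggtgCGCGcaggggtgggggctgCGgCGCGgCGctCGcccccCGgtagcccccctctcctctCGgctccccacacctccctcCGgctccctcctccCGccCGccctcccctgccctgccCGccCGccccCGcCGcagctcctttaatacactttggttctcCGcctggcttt
ZIC5: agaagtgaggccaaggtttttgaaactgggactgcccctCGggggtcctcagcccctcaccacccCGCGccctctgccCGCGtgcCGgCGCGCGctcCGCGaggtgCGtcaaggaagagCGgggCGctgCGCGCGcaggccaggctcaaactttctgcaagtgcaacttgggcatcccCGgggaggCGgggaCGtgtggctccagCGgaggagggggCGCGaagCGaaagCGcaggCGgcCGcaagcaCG
The ZIC1, ZIC2 and ZIC5 windows held 23, 31 and 28 CG dinucleotides and this ZIC4 window held 2, beside a median of 11 over 35116 windows of all genes. The other ZIC4 starts had 16, 9 and 7, and the other ZIC5 starts 12 and 21. Thus ZIC1, which rose in the PRC2-null lines, and ZIC2 and ZIC5, which fell, all had CG-rich starts, and ZIC4 had windows on both sides of the median. Each window of 250 bases was searched on both strands for 4 motifs. A GLI site (GACCACCCA, in 0.2% of all windows), an octamer (ATTTGCAT, 1.63%) and a TATA box (TATAAA, 10.72%) were not found in any of the 9 member windows, and CCAAT (32.01% of all windows) was found at the ZIC1 start and at some ZIC4 and ZIC5 starts. These are letters in the reference, and nothing was measured at these starts here.

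Values were TPM, the share of transcripts per gene on a common total, which the authors computed and which is scaled for transcript length, so levels of different genes can be set side by side. TPM columns summed to between 999999.2 and 1000001.0, 19117 to 23012 genes per sample were above 0, and read depth is unknown, so precision rests on the replicates. The targeted genes did not check the labels: EED was at 14.25 and 22.36 TPM in EED-/- H1 against 17.3 and 21.96 in WT H1, SUZ12 was at 22.94 and 20.76 TPM in SUZ12-/- H1 against 25.21 and 27.89, and a gene total does not show whether one domain is missing. In H1-EED-/-/EED-OE cells, transgene and endogenous EED are summed, and EED was at 108.54 TPM with DOX and between 12.64 and 31.56 without. POU5F1, a defining hESC marker, was between 2428.15 and 3456.09 TPM in the retaining lines and between 3.62 and 149.79 in the PRC2-null lines, so the label "human embryonic stem cell" matched its markers only in the former.

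ZIC1 and ZIC4 were higher, and ZIC2 and ZIC5 lower, throughout the 6 samples of the PRC2-null lines than in any of the 6 retaining samples. Of all genes tested, 24.2% were likewise higher in all 6 PRC2-null samples and 13.3% lower. ZIC1 rose 3.96 to 4.09 on the log2(TPM + 1) scale in the 3 PRC2-null lines against WT H1, the fitted ZIC4 values were 1.79 to 2.74 higher, and ZIC2 and ZIC5 had log2 fold changes between -3.10 and -4.00. ZIC1, ZIC2 and ZIC5 passed the thresholds in each of these lines, beside 11.6% to 16.2% of all genes that rose and 5.21% to 6.09% that fell. ZIC4 could enter the test only through these lines, so its values are a description. In EZH1-/- H1 and EZH2-/- H1 cells no member passed the thresholds, beside 0.0995% and 0.0% of all genes.

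ZIC1, a regulator of the neural plate border and the cerebellum, was at 0.21 and 1.1 TPM in WT H1. It was at 0.88 and 0.96 TPM in EZH1-/- H1 and at 2.33 and 2.32 in EZH2-/- H1. It was at 31.64 and 17.95 TPM in EZH2-/-/EZH1-/- H1, at 23.61 and 26.45 in EED-/- H1 and at 25.73 and 26.57 in SUZ12-/- H1. The lowest PRC2-null value was thus 17.95 TPM and the highest retaining value 2.33, with no overlap. The log2 fold change against WT H1 was 4.03 in EED-/- H1 (SE 0.33, limma adjusted p = 4.578e-06), 4.09 in SUZ12-/- H1 (adjusted p = 4.584e-06) and 3.96 in EZH2-/-/EZH1-/- H1 (adjusted p = 7.718e-06). In limma, a gene passed throughout when its Benjamini-Hochberg adjusted p over all 19100 genes tested was at most 0.01 and its fitted fold change at least 3.

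ZIC4, the partner of ZIC1 on the opposite strand, was at 0.03 and 0 TPM in WT H1, at 0 and 0.21 in EZH1-/- H1 and at 0.09 and 0 in EZH2-/- H1. It was at 4.41 and 1.29 TPM in EZH2-/-/EZH1-/- H1, at 7.35 and 4.11 in EED-/- H1 and at 7.56 and 4.36 in SUZ12-/- H1. ZIC4 was therefore near 0 in every retaining sample, and it entered the test through the PRC2-null samples alone, since the filter kept genes with at least 1 TPM in at least 2 of the 12 samples. A gene kept in this way had to differ, and its fitted log2 fold changes are given without a p: 2.74 in SUZ12-/- H1, 2.69 in EED-/- H1 (SE 0.41 in each) and, in EZH2-/-/EZH1-/- H1, 1.79 or, without its first sample, 1.17.

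ZIC2, the ZIC gene with the highest level in WT H1, was at 143.13 and 128.44 TPM there. It was at 54.7 and 81.64 TPM in EZH1-/- H1 and at 83.71 and 40.24 in EZH2-/- H1. It was at 19.25 and 11.47 TPM in EZH2-/-/EZH1-/- H1, at 7.49 and 14.81 in EED-/- H1 and at 10.07 and 9.04 in SUZ12-/- H1. The single knockout values lay between those of WT H1 and the PRC2-null lines, but ZIC2 passed the thresholds in neither single knockout. The share of all genes with values in such an order was not counted, so nothing is read from it. The log2 fold change was -3.56 in EED-/- H1 (SE 0.40, adjusted p = 3.566e-05), -3.70 in SUZ12-/- H1 (adjusted p = 3.004e-05) and -3.10 in EZH2-/-/EZH1-/- H1 (adjusted p = 0.0001247).

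ZIC5, the partner of ZIC2 and a gene with a known role in neural crest formation, was at 32.33 and 32.78 TPM in WT H1, at 14.95 and 23.79 in EZH1-/- H1 and at 25.68 and 8.21 in EZH2-/- H1. It was at 2.01 and 0.59 TPM in EZH2-/-/EZH1-/- H1, at 0.53 and 1.86 in EED-/- H1 and at 2.35 and 2.19 in SUZ12-/- H1. Every PRC2-null sample was below every retaining sample, and the second EZH2-/- H1 sample was the lowest of the latter. The log2 fold change was -4.00 in EED-/- H1 (SE 0.51, adjusted p = 8.711e-05), -3.36 in SUZ12-/- H1 (adjusted p = 0.0003173) and -3.94 in EZH2-/-/EZH1-/- H1 (adjusted p = 0.0001305).

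**Figure D1:**
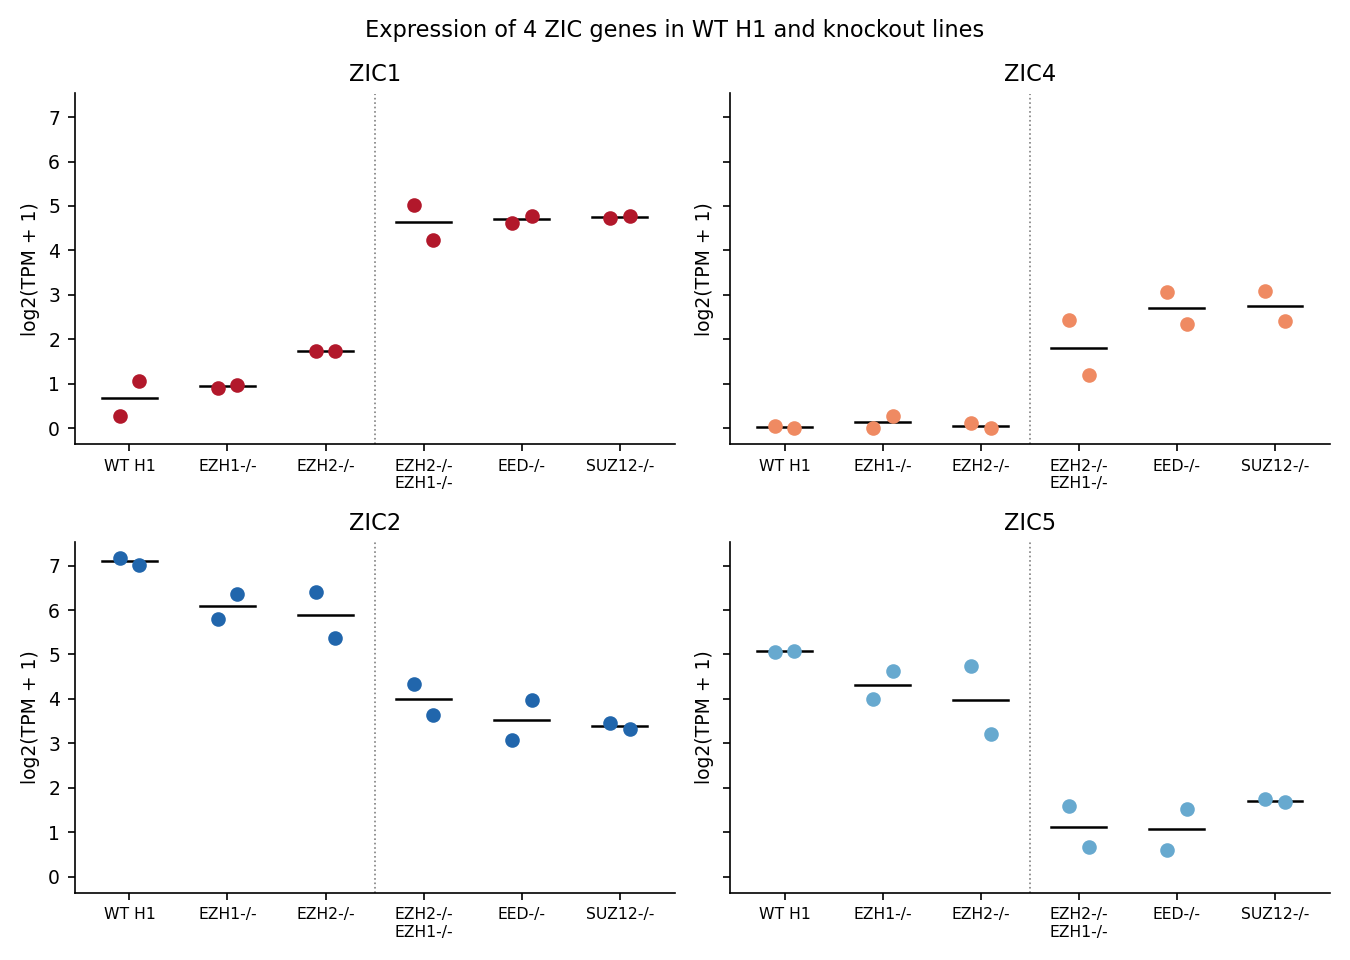
Expression of ZIC1, ZIC4, ZIC2 and ZIC5 as log2(TPM + 1) in WT H1 and 5 knockout lines. Points are samples (2 per line), horizontal bars are line means, and the dotted line divides the retaining lines (left) from the PRC2-null lines (right). ZIC1 is at or below 2.33 TPM on the left and at or above 17.95 TPM on the right, and ZIC2 is at or above 40.24 TPM on the left and at or below 19.25 TPM on the right.

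These changes must be read against a transcriptome that moved widely. Of all genes tested, 16.2% rose and 6.09% fell in EED-/- H1, 14.5% rose and 5.21% fell in SUZ12-/- H1, and 11.6% rose and 5.66% fell in EZH2-/-/EZH1-/- H1. For the average of the 3 lines against WT H1, 13.6% of genes rose and 5.36% fell. The log2 fold changes were 4.03 for ZIC1 (95% interval 3.43 to 4.62), -3.45 for ZIC2 (-4.17 to -2.74) and -3.77 for ZIC5 (-4.68 to -2.85). ZIC4 had 2.41, given without an interval because it entered the fit only through the PRC2-null samples. Groups without overlap were common too, since 24.2% of genes had all 6 PRC2-null values above all 6 retaining values and 13.3% had them below. All these comparisons share the same 2 WT H1 samples.

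Single knockouts of either methyltransferase left the members without a call. In EZH1-/- H1, 0.0995% of genes passed, and in EZH2-/- H1, 0.0%. At an unadjusted p under 0.05, the same limma fit counted 3057 genes (16.0%) in EZH1-/- H1 and 1110 (5.81%) in EZH2-/- H1, among them 1 and 2 members. ZIC2 had a log2 fold change of -1.01 in EZH1-/- H1 (95% interval -1.89 to -0.13, adjusted p = 0.2452) and -1.21 in EZH2-/- H1 (-2.09 to -0.33, adjusted p = 0.6057). ZIC1 had 1.06 in EZH2-/- H1 (0.33 to 1.79, adjusted p = 0.5617) and 0.27 in EZH1-/- H1 (-0.46 to 1.00). The missing calls do not show that these lines equal WT H1.

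**Figure D2:**
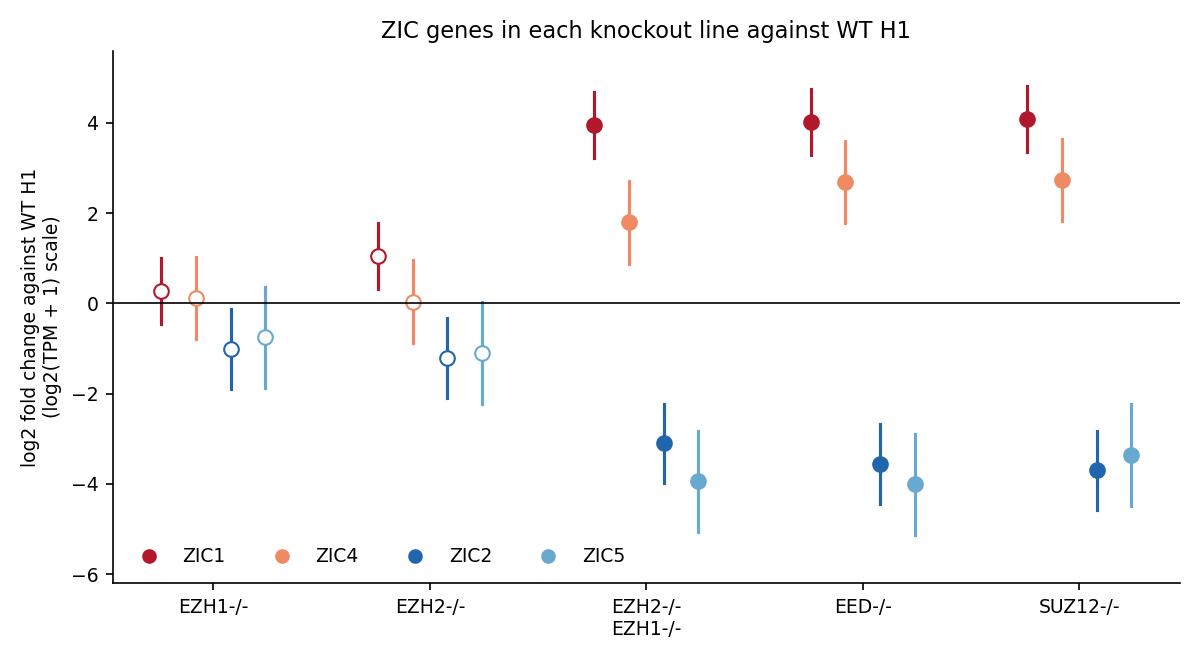
Log2 fold changes of the 4 genes in each knockout line against WT H1, on the log2(TPM + 1) scale, with 95% intervals from limma (12 samples in 1 fit). Filled points passed the thresholds and open points did not. ZIC4 entered the fit only through the PRC2-null samples, so its filled points and intervals are a description. In the PRC2-null lines ZIC1 lies between 3.96 and 4.09 and ZIC5 between -4.00 and -3.36, and all 8 points of the 2 single knockouts are open.

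Among the PRC2-null lines the members did not differ past the thresholds. SUZ12-/- H1 against EED-/- H1 differed in 6.12% of genes, EZH2-/-/EZH1-/- H1 against EED-/- H1 in 0.089%, and SUZ12-/- H1 against EZH2-/-/EZH1-/- H1 in 4.46%. In limma, 0, 0 and 1 of the members were under an unadjusted p of 0.05, beside 6286, 3831 and 5438 of all genes. The exception was ZIC4 in SUZ12-/- H1 against EZH2-/-/EZH1-/- H1, with a log2 fold change of 0.94 (95% interval 0.03 to 1.86, adjusted p = 0.1603). For ZIC1 the 3 intervals together ran from -0.80 to 0.86.

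Whether paralogs responded differently was tested on the difference of log2(TPM + 1) between 2 members in each sample, for all 6 pairs of members, by exact two-sided permutation over the 924 ways to divide the 12 samples into 6 and 6. The smallest p this allows is 0.002165, and the test treats the 2 samples of a line as independent although they share a genotype. An adjusted p of at most 0.05 counted as past the threshold of this test, in which no filter on low values was used. ZIC1 minus ZIC2 averaged 1.06 ± 0.41 (SD, n = 6) in the PRC2-null samples and -5.24 ± 1.12 (SD, n = 6) in the others, an excess of 6.30 (exact p = 0.002165, adjusted p = 0.003247 over the 6 pairs). ZIC4 minus ZIC5 averaged 1.13 ± 0.70 (SD, n = 6) against -4.38 ± 0.70 (SD, n = 6), an excess of 5.50 (exact adjusted p = 0.003247). The excess was 6.73 for ZIC1 minus ZIC5 and -5.07 for ZIC2 minus ZIC4 (exact adjusted p = 0.003247 for each). In these 4 pairs, taken across the neighbouring pairs, the groups did not overlap. This had to be so, since each member alone already parted the groups, and the 2 members of such a pair did so in opposite directions. The p of these 4 pairs was thus fixed at its smallest value and adds nothing to the single-gene values. Because ZIC4 was at 0 to 0.21 TPM in the retaining samples, a difference that involves it follows the other gene there.

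Within a neighbouring pair the differences were smaller. ZIC1 minus ZIC4 averaged 2.27 ± 0.57 (SD, n = 6) in the PRC2-null samples and 1.04 ± 0.56 (SD, n = 6) in the others, an excess of 1.23 (exact adjusted p = 0.01299). This value rests on the pseudocount: with 0.1 in place of 1 it was -0.501 (exact adjusted p = 0.4026), so no order of the 2 rises can be given. In TPM, ZIC1 was 3.21 to 13.91 times ZIC4 in the PRC2-null samples. ZIC2 minus ZIC5 averaged 2.34 ± 0.54 (SD, n = 6) and 1.90 ± 0.20 (SD, n = 6), an excess of 0.436 that did not pass (exact p = 0.09524). Without the SUZ12-/- H1 samples that excess was 0.762 (exact adjusted p = 0.005714), and with a pseudocount of 0.1 it was 1.02 (exact adjusted p = 0.02597). ZIC2 was 3.26 to 4.9 times ZIC5 in TPM in the retaining samples and 4.13 to 19.44 times in the PRC2-null samples, where ZIC5 was close to its lowest values.

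The make-up of ZIC transcripts was therefore different in the PRC2-null lines. The summed TPM of the 4 genes was between 50.77 and 175.7 (median 109) in the retaining samples and between 31.3 and 57.31 (median 43.9) in the PRC2-null samples, and these ranges overlap. ZIC1 made up 0.12% to 4.57% of that sum in the retaining samples and 55.21% to 63.02% in the PRC2-null samples. ZIC2 made up 74.87% to 81.46% and 19.21% to 36.65%, respectively. Across the 12 samples, Pearson's r of log2(TPM + 1) was 0.931 for ZIC1 with ZIC4, 0.972 for ZIC2 with ZIC5 and -0.937 for ZIC1 with ZIC2. These are descriptions over samples that fall into the retaining and the PRC2-null group and share genotypes.

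**Figure D3:**
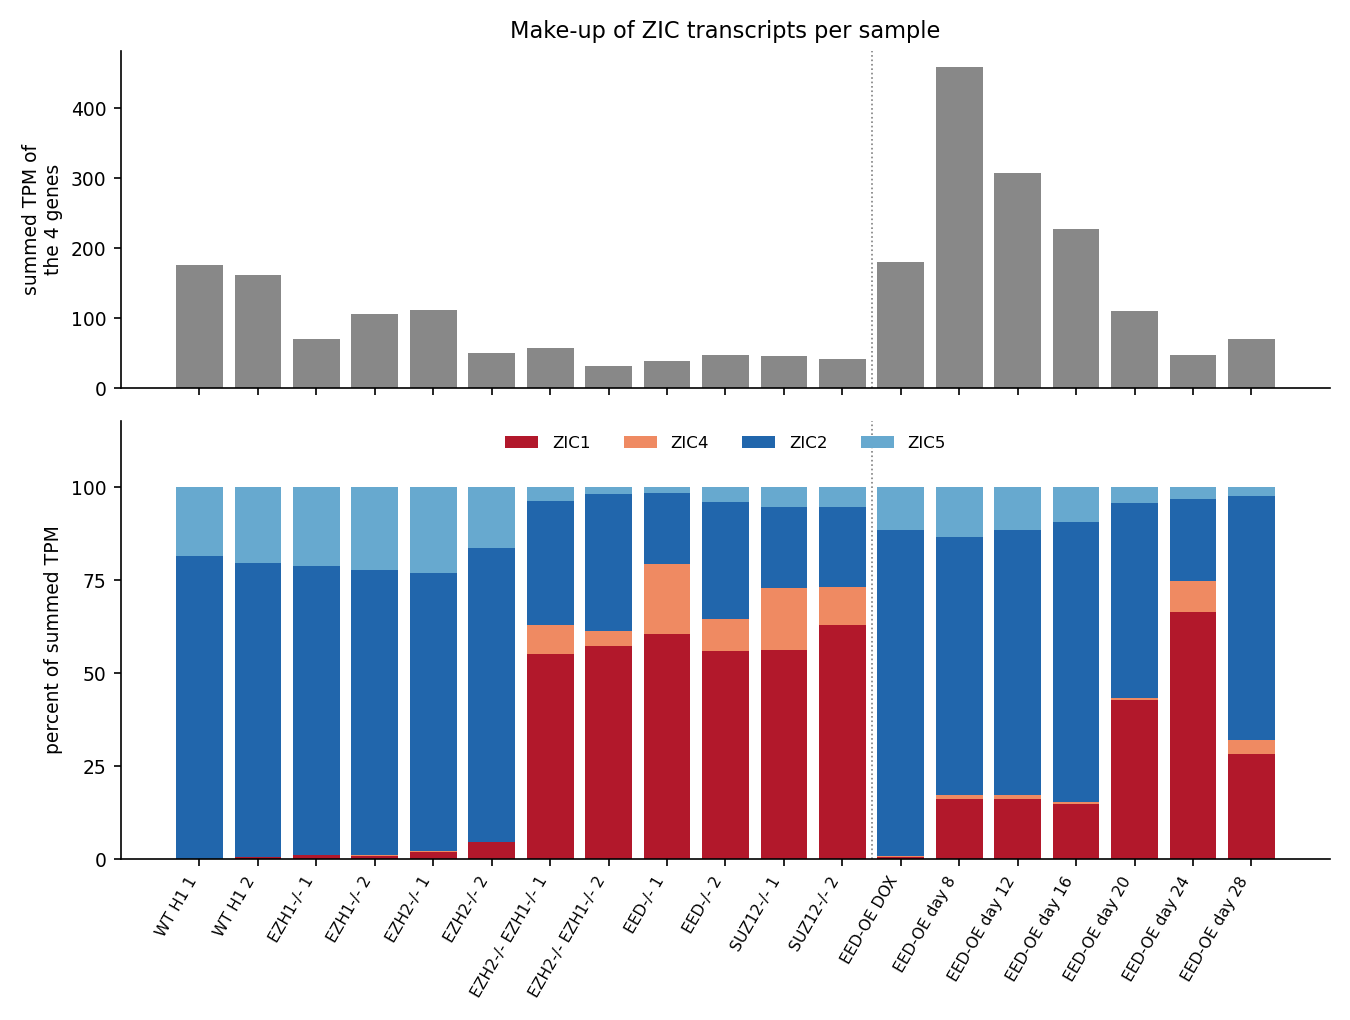
Summed TPM of ZIC1, ZIC2, ZIC4 and ZIC5 (top, bars from 0) and the percent of that sum from each gene (bottom) in the 19 samples. The dotted line divides the 12 samples of WT H1 and knockout lines from the 7 H1-EED-/-/EED-OE samples. ZIC1 makes up at least 55.21% in each PRC2-null sample, 0.73% with DOX, 16.14% at day 8 and 66.46% at day 24.

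When DOX was withdrawn, the order of events differed from the end state of the knockout lines: at day 8 all 4 genes were higher than with DOX, and ZIC2 and ZIC5 were lower only from day 20 on. Each time point is 1 sample, so these are values without a test. ZIC1 was at 1.32 TPM with DOX and at 74.06, 50.11, 34.04, 47.09, 31.52 and 19.96 TPM at days 8, 12, 16, 20, 24 and 28. The day 8 value was the highest of ZIC1 in all 19 samples, above the 17.95 to 31.64 TPM of the PRC2-null lines, and the values at days 24 and 28 lay within that range. The difference from DOX on the log2(TPM + 1) scale was 5.02 at day 8 and 3.17 at day 28. At day 8, 99.97% of the genes had a smaller difference, but the genes were chosen on this jump, so nothing is read from that rank.

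ZIC4 was at 0.08 TPM with DOX and at 5.35, 3.17, 1.14, 0.62, 3.94 and 2.65 TPM at the 6 days. It was highest at day 8 like ZIC1, lowest of the 6 days at day 20, where ZIC1 was not, and higher again at day 24. The log2 differences from DOX were 2.56 at day 8, 0.59 at day 20 and 2.19 at day 24.

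ZIC2 was at 158.2 TPM with DOX and at 317.69, 218.01, 170.95, 57.46, 10.49 and 46.3 TPM at the 6 days. Its day 8 value was about 2.01 times that with DOX, its day 24 value lay within the 7.49 to 19.25 TPM of the PRC2-null lines, and its day 28 value lay above them. The log2 differences from DOX were 1.00 at day 8, -3.79 at day 24 and -1.75 at day 28.

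ZIC5 was at 20.44 TPM with DOX and at 61.78, 35.46, 21.18, 4.67, 1.48 and 1.61 TPM at the 6 days. It ran with ZIC2 up to day 24 but stayed low at day 28, where ZIC2 was 28.76 times ZIC5 in TPM, the highest such ratio of the 19 samples. The log2 differences from DOX were 1.55 at day 8, -3.11 at day 24 and -3.04 at day 28. For scale, the SD between replicates of a knockout or WT line on the log2(TPM + 1) scale was 0.326 for ZIC1, 0.465 for ZIC4, 0.478 for ZIC2 and 0.607 for ZIC5, over 6 lines.

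**Figure D4:**
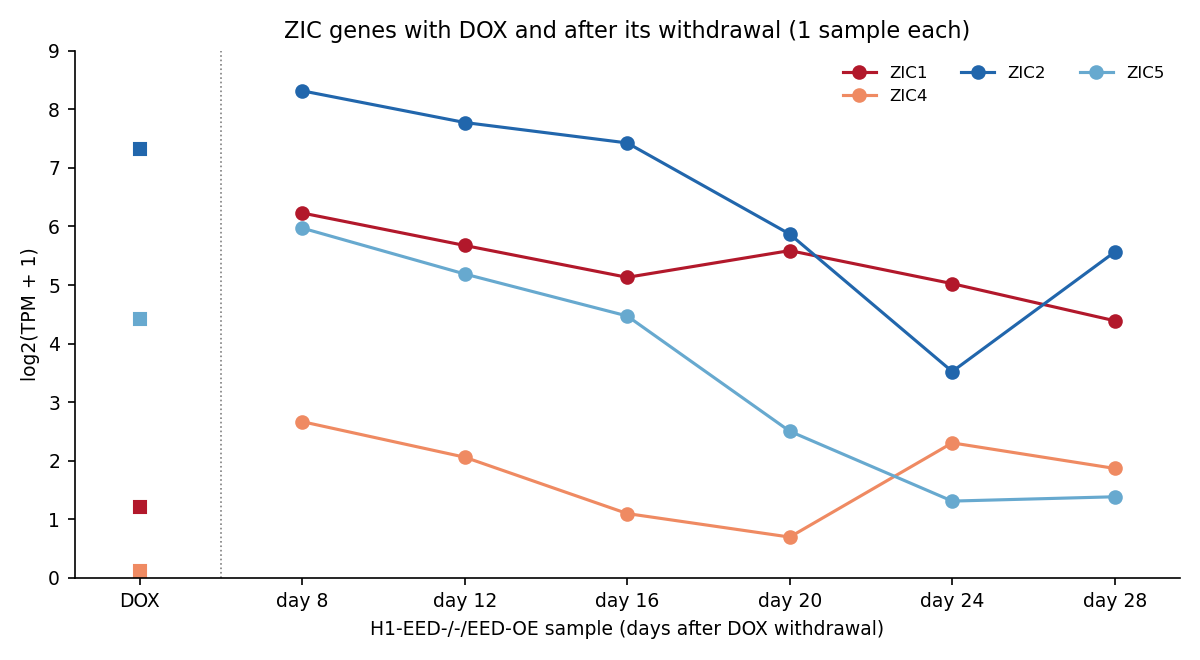
Expression of the 4 genes as log2(TPM + 1) in H1-EED-/-/EED-OE cells with DOX (squares) and at 6 days after its withdrawal (circles), 1 sample each and no error bars. All 4 genes are higher at day 8 than with DOX, ZIC1 stays above its DOX value of 1.32 TPM throughout, and ZIC5 ends at 1.61 TPM against 20.44 with DOX.

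A difference of at least 3-fold on the log2(TPM + 1) scale from the DOX sample was used to count members, beside the share of the 17245 genes with at least 1 TPM in at least 2 of the 7 samples. At day 8, ZIC1 and ZIC4 were past it upwards, where 2.93% of genes were higher and 0.603% lower. At day 12 the same 2 members were past it (3.08% of genes higher, 0.4% lower), and at day 16 ZIC1 was (4.13% higher, 0.939% lower). At day 20, ZIC1 was higher and ZIC5 lower (9.62% higher, 2.91% lower). At day 24 (13.9% higher, 5.09% lower) and at day 28 (18.8% higher, 6.11% lower), ZIC1 and ZIC4 were higher and ZIC2 and ZIC5 lower. The rule that chose the genes used the day 8 contrast, so nothing is read from these counts.

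The day 8 sample stood apart in other neural genes as well. The summed TPM of 13 neural plate genes was 814.65 at day 8, against 236.97 with DOX and 346.16 at day 12. Much of the day 8 sum was SOX2, also an hESC marker, at 417.44 TPM against 131.44 with DOX. OTX2 was at 136.53 TPM against 14.99. Some genes of the list moved little, such as NES (84.32 TPM against 62.47) and FEZF2 (0.17 TPM against 0.12). LHX5, a forebrain homeobox gene, was at 43.91 TPM at day 8 and 0.15 with DOX. SIX3, a regulator of the anterior neural plate, was at 37.6 TPM and 0.27. OLIG3, a gene of dorsal progenitors of the neural tube, was at 58.08 TPM and 0.11, while the other 9 dorsal neural tube genes were at no more than 1.63 TPM at day 8. In the 6 PRC2-null samples LHX5, SIX3 and OLIG3 were at no more than 1.42 TPM, but other neural plate genes were not low there. PAX6 was between 5.66 and 128.76 TPM in them against 5.23 at day 8, and MEIS2 between 20.18 and 37.48 TPM against 6.45. LHX2 was between 1.6 and 5.27 TPM against 2.77 at day 8. SOX1, another neural plate gene, was at 9.04 TPM at day 8 and at most 0.23 in the PRC2-null samples. The part of these neural genes in the ZIC values was not tested.

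**Figure D5:**
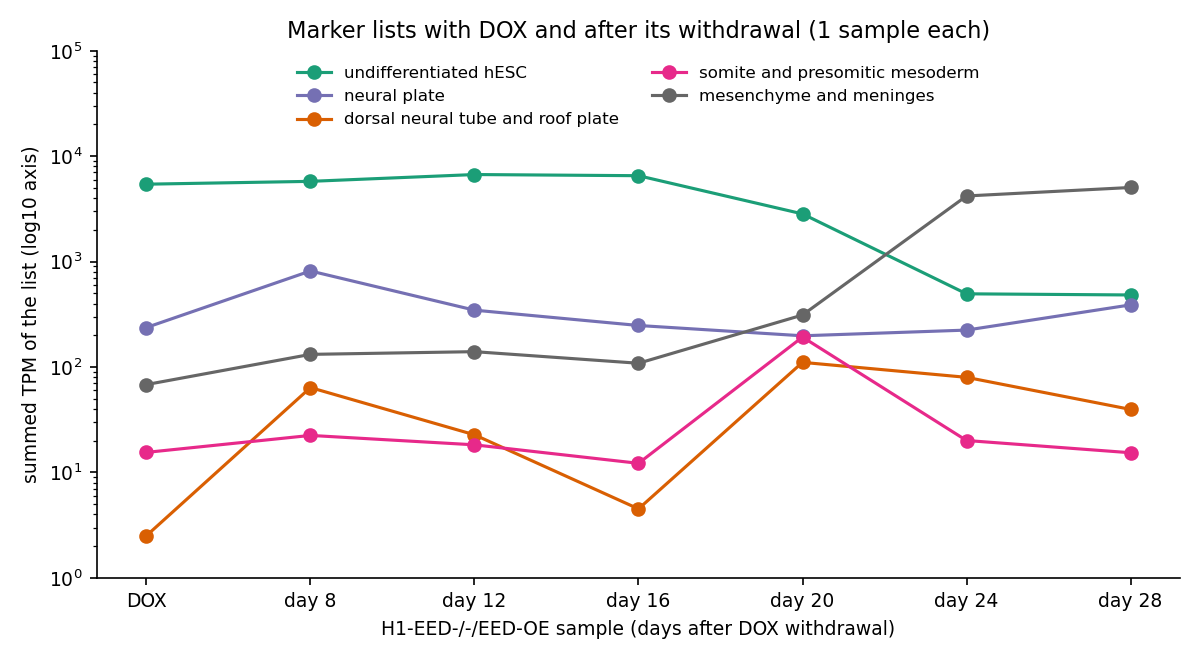
Summed TPM (log10 axis) of 5 marker lists in H1-EED-/-/EED-OE cells with DOX and at 6 days after its withdrawal, 1 sample each. The neural plate list is highest at day 8 (814.65, of which SOX2 is 417.44) and the somite list at day 20 (192.33). The hESC list is at 2834.1 at day 20 and 494.52 at day 24.

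In the knockout lines the cell states behind the samples also differed, and in bulk samples fewer cells of a type and less RNA per cell cannot be told apart. All 9 undifferentiated hESC markers fell when the PRC2-null lines were averaged, with summed levels of 6478.56 to 7722.89 TPM in the retaining samples and 189.6 to 510.97 TPM in the PRC2-null samples. NANOG was at 97.47 TPM or more and at 8.1 TPM or less, respectively. Of 10 mesenchyme and meninges genes, 9 rose (summed levels 58.47 to 93.56 TPM against 2855.35 to 8983.96 TPM), and all 8 endoderm genes rose (5.74 to 16.76 TPM against 473.42 to 13888.2 TPM), beside 13.6% of all genes that rose and 5.36% that fell. The highest endoderm sum is nearly all AFP, at up to 13695.33 TPM, and 5 of the 10 mesenchyme genes and 6 of the 8 endoderm genes entered the test only through the PRC2-null samples. None of these 3 lists overlapped between the groups, and their part in the changes of the ZIC genes was not tested. SOX2 is on both the hESC and the neural plate list.

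Genes of tissues where ZIC proteins act moved unevenly. Of 15 neural plate border and neural crest genes, 14 were tested, 6 rose (MSX1, MSX2, TFAP2A, SNAI2, SOX9 and DLX5) and FOXD3 fell. MSX1, a homeobox gene of the border and the roof plate, had a log2 fold change of 4.96, and FOXD3, which also serves pluripotent cells, had -3.60. FOXD3 was at most at 0.77 TPM in the PRC2-null samples and entered the test only through the retaining samples, so no p is given for it. SOX10, the defining marker of migrating crest, had -0.97 and did not reach the fold threshold. Of 10 dorsal neural tube and roof plate genes only 5 were tested, and LMX1B, GDF7 and MSX1 rose, while WNT1, WNT3A and OLIG3 were below 1 TPM in all 12 samples. Of 13 neural plate genes 9 were tested, of which PAX6, LHX2 and MEIS2 rose and SOX2, SOX3 and HESX1 fell. SOX1, LHX5, RAX and FEZF2 were below 1 TPM in all 12 samples. Of 12 somite and presomitic mesoderm genes 9 were tested and TCF15 fell. The median log2 fold change was 1.26 for the crest list, 0.43 for the neural plate list and 0.70 for the somite list, beside 0.28 over all genes tested. Of all genes tested, 13.6% rose and 5.36% fell. The filter favours rises in such lists: 6 of the 14 crest genes, all 5 dorsal genes, 4 of the 9 neural plate genes and 5 of the 9 somite genes were below 1 TPM in every retaining sample and entered the test through the PRC2-null samples, so these counts and medians are a description and no median is given for the dorsal list.

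Of the hedgehog pathway, whose GLI factors are relatives of the ZIC proteins, 13 of 14 genes were tested and 5 rose, beside 13.6% of all genes tested. These were the ligands SHH and IHH, the inhibitors HHIP and SUFU, and the co-receptor GAS1. SHH was between 5.94 and 64.25 TPM in the PRC2-null samples and at most 0.05 TPM in the retaining samples. IHH was between 14.42 and 71.86 TPM and at most 0.08 TPM. Both ligands reached the filter only through the PRC2-null samples, so no p is given for them, and the ligand DHH did not reach it. HHIP had a log2 fold change of 3.13 (adjusted p = 9.637e-05). The receptor PTCH1 had 0.86 (limma adjusted p = 0.07139), and the transcription factor GLI1 had -0.93 (limma adjusted p = 0.03821). Neither PTCH1 nor GLI1 passed the thresholds. Of 7 GLI and GLIS genes, GLIS1 and GLIS3 rose, with log2 fold changes of 1.61 and 2.31, and both were below 1 TPM in every retaining sample. The median log2 fold change was 0.86 for the hedgehog list and 0.66 for the GLI and GLIS list, beside 0.28 over all genes tested.

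The genes next to each pair were read for comparison, 3 on each side by annotated start. Around ZIC1 and ZIC4 all 6 were long noncoding RNAs, and none was above 0.67 TPM in any of the 19 samples. Around ZIC2 and ZIC5, 3 of the 6 were expressed: CLYBL, which encodes a mitochondrial enzyme, had a log2 fold change of -1.08 (adjusted p = 0.002248), RP11-12G12.7 -1.19 (adjusted p = 0.002253) and PCCA, a subunit of propionyl-CoA carboxylase, -0.78 (adjusted p = 0.006395). All 3 were lower in the PRC2-null lines, but under the fold threshold and by less than ZIC2 (-3.45) or ZIC5 (-3.77). PCCA was between 15.81 and 27.33 TPM in the PRC2-null samples and between 34.46 and 46.77 in the others. RP11-12G12.7 was between 6.91 and 14.56 TPM against 14.68 to 29.58, and CLYBL overlapped, at 2.39 to 8.5 TPM against 7.65 to 12.97. RP11-12G12.7 and PCCA both start 107.2 kb from the ZIC2 start, so they are not separate places in the genome. No test was made of these genes against the members.

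The genes whose pattern was most like each member were ranked by Pearson's r of log2(TPM + 1) over the 19 samples, which share 1 parental line and, in part, a genotype. For ZIC1 they were BARX1 (r = 0.938), EFNA5 (0.935), LBX2-AS1 (0.924), C17orf96 (0.924) and LHX2 (0.911). BARX1, a homeobox gene, was between 19.49 and 58.25 TPM in the PRC2-null samples, between 1.93 and 4.48 TPM in the retaining samples, and at 3.17 TPM with DOX and 41.05 at day 8. For ZIC4 they were LTK (0.93), IGIP (0.926), DIP2A (0.925), GOLGA8A (0.922) and DNASE1L1 (0.921). For ZIC2 they were YBX2 (0.971), CUX2 (0.968), NR6A1 (0.966), CCDC181 (0.962) and PHF21B (0.942). For ZIC5 they included ZGRF1 (0.964), IGSF21 (0.963), PSIP1 (0.96) and RP11-415G4.1 (0.96). NR6A1, a nuclear receptor, was between 29.76 and 59.91 TPM in the retaining samples and between 5.27 and 14.23 TPM in the PRC2-null samples. Over all 19 samples r was 0.823 for ZIC1 with ZIC4 and 0.929 for ZIC2 with ZIC5, and over the 7 time course samples 0.692 and 0.934. The r of ZIC1 with ZIC2 was -0.937 over the 12 line samples and 0.02 over the time course. The ranks over 19 samples include the day 8 sample, on whose ZIC1 value the members were chosen. They also include the retaining and PRC2-null samples, which 24.2% of genes parted upwards and 13.3% downwards. The ranks are thus a description, and no r of other genes is given beside them.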

How the data were processed

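Per the labels and the study's methods, the authors made TruSeq RNA libraries without strand information, aligned reads with Bowtie2, quantified genes with RSEM on GRCh38 and deposited TPM for 33382 genes in each of 19 samples. The submitters' notes name GRCh38, hg38 and hg19. The authors' edgeR test needs counts, so limma 3.58.1 (R 4.3.3, trend and robust options) was run on log2(TPM + 1) of the 12 WT H1 and knockout samples, for the 19100 genes that reached a TPM of 1 in 2 or more samples. Fold changes on this scale understate changes of low genes. A gene was called at a Benjamini-Hochberg adjusted p up to 0.01 with a fold change of 3 or more. Paralog differences were compared by exact permutation, with code that was checked against scipy 1.17.1 on made-up values. Scripts were tested on simulated data. Genes were joined by Ensembl identifier.

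The 4 genes and the gene lists were chosen with earlier results of these data known. Singly named genes were the 4 genes, the targeted genes, members of the lists, the 3 nearest genes on each side of a pair, and the 5 genes most correlated with each member. Some genes that these rules name are not reported here. LHX5, SIX3, OLIG3 and SOX1 were singled out of the lists after their values were seen. Marker lists had 8 to 15 genes. Replicate numbers were given in accession order and pair no samples. Alternatives were a pseudocount of 0.1, no filter, median-ratio scaling, a replicate block, an adjusted p of 0.05 with no fold threshold, fits of 1 line with WT H1, leaving out samples or lines, and WT H1 as time course reference. Proteins are not shown.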

Additional observations from a re-analysis of the deposited data

Results flagged for a closer look

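ZIC4-AS1, a long noncoding RNA on the opposite strand within ZIC4, was at 0.67 TPM in the second EZH2-/-/EZH1-/- H1 sample and listed at 0 in the other 18 samples, WT H1 included. No comparison of the members uses it. All 268 exon bases of ZIC4-AS1 lie within ZIC4 exons, and the libraries do not keep the strand, so reads of the 2 genes cannot be told apart. ZIC4 was at 1.29 TPM in that sample, the lowest of the 6 PRC2-null samples.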

How the results depend on the processing

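In the 9 limma comparisons, no single-gene value of a member that had passed changed direction under the alternatives run, and 352 of 357 values, called or not, kept their side of the thresholds. The exception was ZIC4 in EZH2-/-/EZH1-/- H1, which in 5 alternatives kept its direction but missed the threshold. These were no filter, a fit with WT H1 only, leaving out either WT H1 sample, and leaving out the first EZH2-/-/EZH1-/- H1 sample. ZIC4 entered the filtered fits only through the PRC2-null samples, so its side of the thresholds is a description. With a replicate block, ZIC1, ZIC2 and ZIC5 still passed in each PRC2-null line. The numbers pair no samples: the correlation of deviations averaged -0.003 over 15 pairs of lines (-0.121 to 0.218). The block moved the calls over all genes in EZH1-/- H1 from 11 up and 8 down to 4 and 6, and in EZH2-/-/EZH1-/- H1 against EED-/- H1 from 6 and 11 to 4 and 5. Median-ratio scaling shifted all values of the average PRC2-null line by -0.244 and of day 28 by -0.464 (log2). Where 1 sample of a line was left out, the lone sample was assumed to vary like the others.

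With a pseudocount of 0.1, ZIC1 minus ZIC4 reversed to -0.501 (exact adjusted p = 0.4026), and ZIC2 minus ZIC5 passed at 1.02 (0.02597). ZIC2 minus ZIC5 also passed without SUZ12-/- H1 (0.762, 0.005714) and without either of its samples, and ranged from 0.31 to 0.573 when 1 sample was left out. For these reversals and gains the cause was not tested. With the pseudocount of 0.1, 2 crest genes fell, 5 somite genes rose and 2 fell, and 2 members were at least 3-fold higher at day 16 and at day 20. Without the filter, 1 GLI or GLIS gene rose. Under median-ratio scaling, 2 members were at least 3-fold lower at day 20 and 1 at least 3-fold higher at day 28, and against WT H1 1 was lower at day 28. Of 72 single time course values, 47 moved by less than the replicate SD and 25 by more. Depth is unknown, which limits what can be said of ZIC4 in the retaining lines.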

Other observations

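At day 20 after DOX withdrawal ZIC2 and ZIC5 were lower than at day 16, by -1.556 and -1.968 on the log2(TPM + 1) scale. The steps of ZIC1 (0.457) and ZIC4 (-0.402) were close in size to their replicate SDs of 0.326 and 0.465. No divergence of ZIC1 from ZIC4 is therefore read from them. ZIC1 was at 47.09 TPM, above its day 16 value of 34.04 TPM, while ZIC2 (57.46 TPM), ZIC4 (0.62 TPM) and ZIC5 (4.67 TPM) were below theirs. In the same sample, MSGN1, a regulator of presomitic mesoderm, was at 91.44 TPM and listed at 0 in the samples of DOX and days 8, 12 and 16. TBX6, another presomitic gene, was at 63.9 TPM against 4.44 TPM at day 16, and SOX2 was at 2.48 TPM against 94.35 TPM. FOXC1, a mesenchymal forkhead gene, was at 49.43 TPM, its highest value in the time course. In the 6 PRC2-null samples MSGN1 was at most at 1.49 TPM and TBX6 at most at 2.17 TPM. These are single samples, and these genes were picked out with their values in view.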
